A study of Homo sapiens with 6 samples.

Results

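miR-31 is a microRNA made from a single hairpin on the short arm of chromosome 9, and both of its mature arms, hsa-miR-31-5p and hsa-miR-31-3p, were followed here in A549 and BEAS-2B cells exposed to TGF-β1. The members were chosen by name, and both were present among the 2588 mature miRNAs counted in each library. A549 comes from a human lung adenocarcinoma, and BEAS-2B is an immortalised line of human bronchial epithelium. Both are labelled wild type. Treated cells of each line received TGF-β1 at 1 or at 5 ng/mL for 48 h in medium with reduced serum, controls received no TGF-β1, and small RNA libraries were made from total RNA. There were 6 groups with 1 library each. No replicate error could be given, no test of treatment was possible, and every interval covers counting error only.

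A microRNA hairpin is cut into a short duplex, of which 1 strand is usually loaded into the silencing complex and the other is mostly degraded. The loaded strand finds messenger RNAs mainly through its seed, the bases near its 5′ end. miR-31 is best known from epithelial cells and from cancer, where it has been described both as a driver of growth in lung tumours and as a brake on invasion and metastasis in breast tumours. Its gene lies near the tumour suppressor gene CDKN2A, which A549 cells are known to have lost. TGF-β1 is the cytokine that moves epithelial cells toward a mesenchymal state, and the comparison asked whether either arm follows it.

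In the GENCODE release 29 annotation of GRCh38, MIR31 lies on chromosome 9 from 21512115 to 21512185, on the minus strand. It is within the intron between exon 1 and exon 2 of the long non-coding RNA gene MIR31HG (21455642 to 21559669, same strand). The gap to MTAP is 290 kb, to CDKN2A (21967753 to 21995301) 456 kb and to CDKN2B 491 kb. No other annotated small RNA gene overlaps the hairpin, so neither arm shares its position with an opposite-strand miRNA. The hairpin is shown because both arms come from it, with the 5p arm in capitals (bases 8 to 28 of 71), and the mature 5p arm (chr9:21512158-21512178, minus strand) is shown with its seed, bases 2 to 8, in capitals. Both sequences are RefSeq's, on GRCh38.p14.
MIR31 hairpin: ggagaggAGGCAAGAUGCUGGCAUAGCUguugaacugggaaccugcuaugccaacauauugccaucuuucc
hsa-miR-31-5p: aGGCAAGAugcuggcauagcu

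The 5p arm is 21 bases long, 11 of them G or C, and it has 1 locus in the table. The predicted fold of the hairpin has a free energy of -36.8 kcal/mol and pairs 17 of the 21 bases of the 5p arm. Of the 2588 names in the files, 2281 matched a mature sequence, and none of these shared bases 2 to 8 with hsa-miR-31-5p (0 miRNAs). Bases 2 to 7 were shared by 1 other, hsa-miR-6809-5p, which had a count of 0 in each of the 6 libraries. No other counted miRNA among those matched therefore carried its seed. The hsa-miR-31-3p arm is named only.

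The libraries held 633318 to 900424 counts, and hsa-miR-21-5p alone took 35.4% to 57.2% of them. The untreated BEAS-2B library stood apart, with the lowest share of hsa-miR-21-5p and a trimmed mean of M-values (TMM) factor of 1.32 against 0.829 to 1.02 in the other 5. Counts were scaled by TMM, and the normalised data (ND) value is log2 of the normalised count plus 1. Each result against untreated BEAS-2B cells rests on that library. The comparison of 5 with 1 ng/mL does not use its counts, although the TMM factors were computed over all 6 libraries. Epithelial miRNAs were low, with summed counts of 237 to 399 in A549 and 299 to 472 in BEAS-2B libraries over 7 markers, all of which had a count in at least 1 library. Most of these counts were hsa-miR-200b-3p (139 to 356 per library), and hsa-miR-205-5p had 0 to 2. Blood markers summed to 0 to 9 counts in any library, with hsa-miR-223-3p at 0 in all 6, and the liver marker hsa-miR-122-5p had 1 to 14. Summed counts of 6 mesenchymal or muscle markers in order of dose were 158, 1729 and 1155 for A549, and 13, 70 and 111 for BEAS-2B. Only hsa-miR-143-3p, which made up most of these, and hsa-miR-145-5p had more counts in the treated libraries than in the control. hsa-miR-199a-3p and hsa-miR-1-3p had 0 to 4 counts per library and no more with treatment than without, and hsa-miR-214-3p and hsa-miR-133a-3p were at 0 throughout. The neural list summed to 314 to 484 counts in A549 cells, all of them hsa-miR-9-5p, and to 8 or 9 in BEAS-2B cells. The part of any of these in the miR-31 values was not tested.

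Both arms of miR-31 were present in both cell lines, and the 5p arm was the abundant one. From the control to the lower and the higher dose of TGF-β1, the counts of hsa-miR-31-5p in the A549 libraries were 1287, 1973 and 1619. The BEAS-2B libraries had 1172, 824 and 1127 in the same order. The arm thus made up 0.163% (exact 95% interval 0.154 to 0.172), 0.219% and 0.256% of the A549 libraries. Of the BEAS-2B libraries it made up 0.159% (0.150 to 0.169), 0.125% and 0.147%. The arm ranked between 35 and 41 among the 902 to 955 miRNAs counted in each A549 library and between 47 and 56 among the 908 to 1031 in each BEAS-2B library. Its nearest neighbours in abundance were hsa-miR-128-3p (1357) and hsa-miR-22-3p (1255) in untreated A549 cells, and hsa-miR-335-3p (1174) and hsa-miR-152-3p (1127) in untreated BEAS-2B cells.

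After normalisation, hsa-miR-31-5p was higher in each A549 library than in any BEAS-2B library, and of the 157 miRNAs whose ND reached 8 in some library 59.2% were likewise separated by line, 35.7% with A549 above. In order of dose, the A549 normalised counts were 1339, 1981 and 1884, while those of BEAS-2B were 902, 954 and 1105. In order of level, A549 at 1 ng/mL was not separated from A549 at 5 ng/mL (log2 difference 0.07, 95% interval -0.02 to 0.17), and BEAS-2B at 1 ng/mL was not separated from untreated BEAS-2B (0.08, -0.05 to 0.21). The other neighbours in the order were separated beyond counting error. The smallest gap between the lines, untreated A549 above BEAS-2B at 5 ng/mL, was 0.28 (0.16 to 0.39) on the log2 scale.

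The 3p arm was rarer and its libraries came in a different order. In order of dose its counts were 124, 164 and 98 for A549, and 140, 68 and 235 for BEAS-2B. Normalised, these were 129, 165 and 114 for A549, and 108, 78.7 and 230 for BEAS-2B. The highest and the lowest library were both BEAS-2B, at 5 and 1 ng/mL, 2.93-fold apart, and the A549 libraries lay between them. The untreated libraries and A549 at 5 ng/mL could not be ordered at this depth, since the log2 difference was 0.18 (-0.22 to 0.58) between untreated A549 and A549 at 5 ng/mL and 0.08 (-0.30 to 0.47) between the latter and untreated BEAS-2B. No library reached an ND of 8 for this arm, its highest being 7.85.

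**Figure D1:**
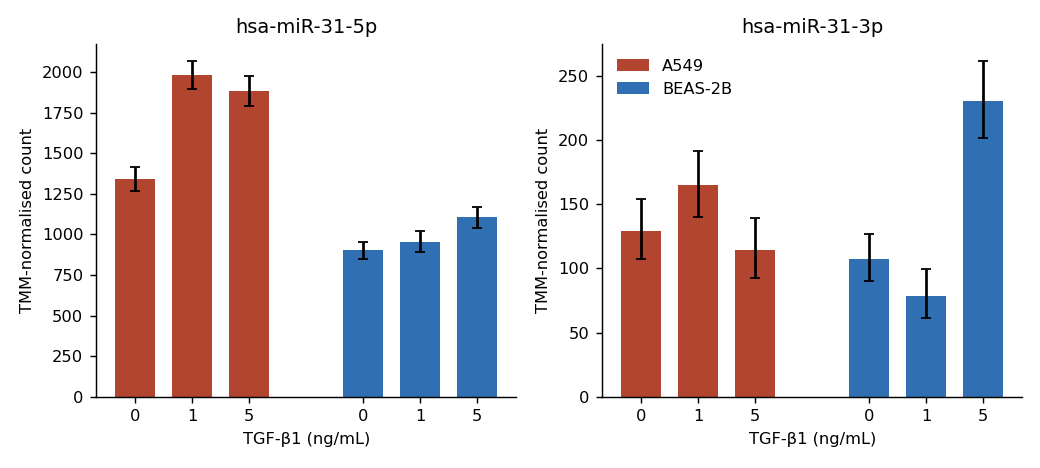
Bars give the TMM-normalised count of hsa-miR-31-5p (left) and hsa-miR-31-3p (right) in each of the 6 libraries by TGF-β1 dose in ng/mL, and error bars are exact 95% Poisson intervals for counting error. The 5p bars of A549 cells (1339 to 1981) stand above those of BEAS-2B cells (902 to 1105), and the highest 3p bar is BEAS-2B at 5 ng/mL (230).

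In A549 cells, hsa-miR-31-5p was higher at both TGF-β1 doses than in the control. The lower dose gave a log2 ratio to control of 0.56 (95% interval 0.46 to 0.67), or 1.48-fold, and the higher dose one of 0.49 (0.39 to 0.60), or 1.41-fold. The study called a change where the ND was 8 or more and the fold change 1.4 or more. With the ND taken from the greater library, both values passed these criteria. Passing was common, since among the miRNAs with a sufficient ND 48.9% of 137 passed for the lower dose and 53.2% of 141 for the higher. At 1 ng/mL, 29 of the 137 had a higher ratio than hsa-miR-31-5p, and at 5 ng/mL 37 of the 141 did. Neither interval lay wholly beyond 1.4-fold. The direction was the same under each of the 9 other settings, with log2 ratios of 0.31 to 0.62 for the lower and 0.20 to 0.65 for the higher dose, but the 5 ng/mL value passed the criteria in 4 of them and the 1 ng/mL value in 6. Both doses were compared with the same control library. Between the doses, the log2 ratio of 5 to 1 ng/mL was -0.07 (-0.17 to 0.02), where 16.9% of miRNAs passed the criteria.

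In BEAS-2B cells, the value of hsa-miR-31-5p stayed close to that of its control. The lower dose gave a log2 ratio of 0.08 (-0.05 to 0.21), and the higher dose one of 0.29 (0.17 to 0.41), or 1.23-fold. Neither passed the criteria, which 29.2% of miRNAs did for the lower and 36% for the higher dose. The sign depended on the scaling, because with total counts the values were -0.35 and -0.12 and without scaling they were -0.51 and -0.06, of which -0.51 passed the criteria as lower. Total-count scaling moved the median of all miRNAs that met the ND criterion by -0.43 and -0.41 in these comparisons. Relative to the median of each setting, hsa-miR-31-5p lay 0.11 to 0.12 higher for the lower dose and 0.37 to 0.39 higher for the higher dose under the 8 alternatives. The log2 ratio of 5 to 1 ng/mL, which uses no counts of the untreated library, was 0.21 (0.08 to 0.34). This did not pass, as 6.61% of miRNAs did. With TMM factors computed without the untreated library it was 0.17 (0.04 to 0.30). Under TMM, the log2 ratio to control in A549 exceeded that in BEAS-2B cells by 0.20 (0.04 to 0.36) at 5 ng/mL, and by 0.48 (0.32 to 0.65) at 1 ng/mL. The difference at 5 ng/mL depended on the scaling. With quantile normalisation it was reversed, at 0.20 in A549 and 0.39 in BEAS-2B cells. Totals without hsa-miR-21-5p gave 0.49 and 0.47, and total counts gave 0.65 and -0.12. These differences between the lines compare 4 single libraries and have no replicate check.

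The 3p arm did not follow the 5p arm. In BEAS-2B cells at 5 ng/mL, hsa-miR-31-3p was 2.13-fold its control level, with a log2 ratio of 1.09 (0.79 to 1.41), while at 1 ng/mL it was lower than the control at -0.45 (-0.89 to -0.02). The 5 to 1 ng/mL ratio, which uses no counts of the untreated library, was 1.54 (1.15 to 1.96), or 2.90-fold. With TMM factors computed without the untreated library it was 1.49 (1.11 to 1.92). Under TMM the arm was below the ND criterion in all libraries. With total counts less hsa-miR-21-5p it reached it in BEAS-2B cells at 5 ng/mL and passed the criteria there against control (1.27), against 1 ng/mL (1.68) and against A549 (the A549 ratio being -1.27). That scaling moved the median of all miRNAs meeting the ND criterion by 0.18, 0.14 and -0.26, and the share of miRNAs passing under it was not computed. With an ND of 7 required instead under TMM, equal to a normalised count of 127, the arm entered the comparison and passed the fold criterion at 5 ng/mL against control, as 35.6% of 160 miRNAs did. It also passed at 5 against 1 ng/mL, as 9.82% of 163 miRNAs did, and none of the 163 had a larger ratio in either direction (0 miRNAs). In the comparison with control at 5 ng/mL, 11 of the 160 had a higher ratio. The arm entered both comparisons only through the library at 5 ng/mL, with an ND of 7.85 against 6.32 at 1 ng/mL and 6.76 in the control. Its passing and its place there are therefore no independent support. Without an ND threshold, 113 of 1144 miRNAs had a ratio of larger size at 5 against 1 ng/mL. Against control at 1 ng/mL, where 31.4% of miRNAs passed, the arm was below an ND of 7 in both libraries. The signs of all 3 comparisons were the same under every scaling tried.

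In A549 cells, hsa-miR-31-3p had a log2 ratio to control of 0.35 (0.01 to 0.70) with the lower dose. Its interval included 0 with DESeq2 size factors (lower end -0.09), total counts (-0.13) and TMM without the untreated BEAS-2B library (-0.06). It also did so with TMM and totals without hsa-miR-21-5p (-0.05 and -0.01), but not without scaling (0.06). With the higher dose the log2 ratio was -0.18 (-0.58 to 0.22), so a difference from the control at 5 ng/mL was not detectable at this depth. The ratio of 5 to 1 ng/mL was -0.53 (-0.91 to -0.16). The arm entered with an ND of at least 7 only through the library at 1 ng/mL (7.37 against 6.85 at 5 ng/mL). It passed 1.4-fold there, as 21.7% of 184 miRNAs did, but fell short of it with total counts (-0.23) and with quantile normalisation (-0.40). In the comparisons with control it did not pass, where 43.9% of miRNAs did for the lower and 53.6% for the higher dose. The difference between the lines in the log2 ratio to control, A549 minus BEAS-2B, was -1.27 (-1.75 to -0.78) for the higher and 0.80 (0.26 to 1.33) for the lower dose. The arm was thus relatively higher in BEAS-2B cells at one dose and relatively higher in A549 cells at the other. With 98 to 235 counts behind each of these values except the 68 at 1 ng/mL in BEAS-2B cells, the intervals are wider than for the 5p arm.

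Between the lines, hsa-miR-31-5p was higher in A549 than in BEAS-2B cells at each dose. In order of dose the log2 ratio was 0.57 (0.46 to 0.69), 1.05 (0.94 to 1.17) and 0.77 (0.66 to 0.88), which are 1.48-fold, 2.08-fold and 1.70-fold. All 3 passed the criteria, as 68.9%, 64.3% and 67.8% of miRNAs did. The untreated difference nearly vanished with total counts, at 0.03, and was 0.13 without scaling, while the values at 1 and 5 ng/mL ranged from 0.80 to 1.26 and from 0.46 to 0.80 over the 9 alternatives. Differences of this size were ordinary between these lines, since 51 of 135, 36 of 143 and 46 of 146 miRNAs had a higher ratio. The 3p arm had log2 ratios of 0.26 (-0.10 to 0.62), 1.06 (0.65 to 1.49) and -1.01 (-1.37 to -0.67) in order of dose. With an ND of at least 7 the last 2 passed, at doses where 64% and 69.8% of miRNAs did, and the first did not, where 69.8% did. At 1 ng/mL only A549 met that ND (7.37 against 6.32), and at 5 ng/mL only BEAS-2B did (7.85 against 6.85). The arm thus entered each of these through the line in which it was higher. The sign of the first was negative with total counts, with quantile normalisation and without scaling.

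**Figure D2:**
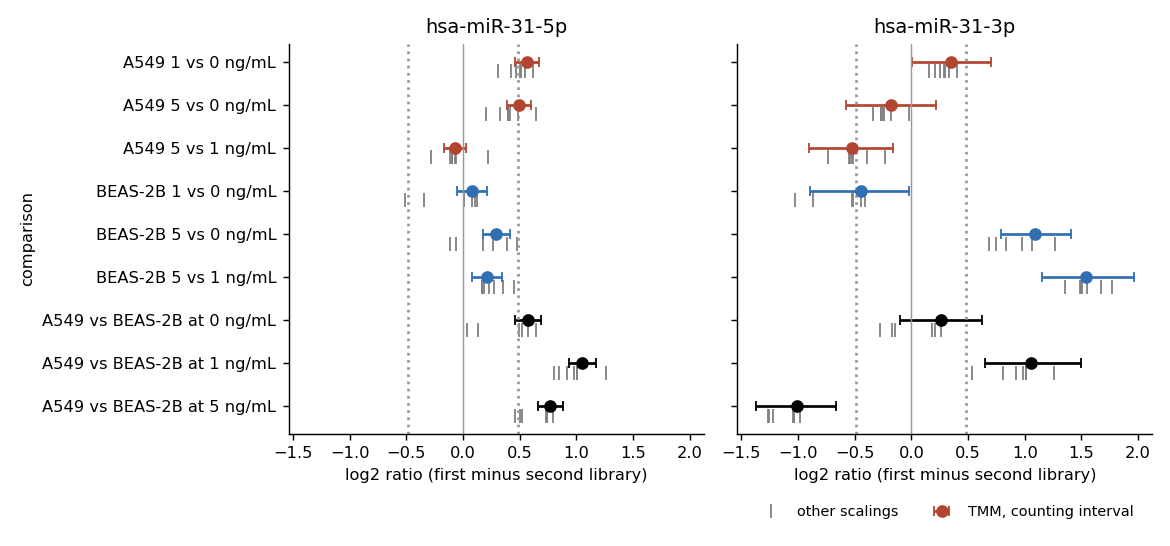
Points give the log2 ratio of the first to the second library of each comparison for hsa-miR-31-5p (left) and hsa-miR-31-3p (right) under TMM, with exact 95% counting intervals as bars, grey ticks for the other scalings and dotted lines at 1.4-fold. Red points are A549, blue points BEAS-2B and black points the cell lines against each other. The value farthest from 0 is that of hsa-miR-31-3p in BEAS-2B cells at 5 against 1 ng/mL (1.54).

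Both arms are read in the same library, so a single scaling factor per library does not change their ratio. In A549 cells there were 10.4 reads of hsa-miR-31-5p per read of hsa-miR-31-3p in the control (exact 95% interval 8.63 to 12.6), 12.0 (10.3 to 14.2) with the lower dose and 16.5 (13.5 to 20.5) with the higher. The BEAS-2B libraries had 8.37 (7.02 to 10.0), 12.1 (9.46 to 15.8) and 4.80 (4.16 to 5.54). The lines were not separated at 1 ng/mL, with a log2 difference of -0.01 (-0.46 to 0.42), nor without TGF-β1 (0.31, -0.07 to 0.69). At 5 ng/mL they differed by 1.78 (1.42 to 2.16), or 3.44-fold, the ratio being higher in A549 cells. In these comparisons 41.7%, 47.6% and 63.9% of hairpins with at least 10 reads of each arm passed 1.4-fold.

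Against its own control, the 5p to 3p ratio at 5 ng/mL was 1.59-fold higher in A549 cells, a log2 change of 0.67 (0.26 to 1.08). It was lower in BEAS-2B cells, with a log2 change of -0.80 (-1.14 to -0.47). Quantile normalisation, which alters each arm by its rank, gave changes of 0.45 and -0.45, both short of 1.4-fold. For the ratio itself at 5 ng/mL, without regard to the controls, it gave a log2 difference between the lines of 1.68. With the lower dose the change was 0.21 (-0.15 to 0.57) for A549, where 27.9% of hairpins passed 1.4-fold, and 0.53 (0.08 to 0.99) for BEAS-2B, where 27.7% did. Between the doses in BEAS-2B cells, without the untreated library, it was -1.34 (-1.77 to -0.92). The 5p arm remained the major one in each library, at 91.2%, 92.3% and 94.3% of the reads of both arms for A549, and 89.3%, 92.4% and 82.7% for BEAS-2B. Among the 124 to 145 hairpins with at least 50 reads over both arms in a library, the major arm held a median of 97.6% to 98.5% of the reads, so the minor arm of miR-31 was a larger share than in the median hairpin.

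**Figure D3:**
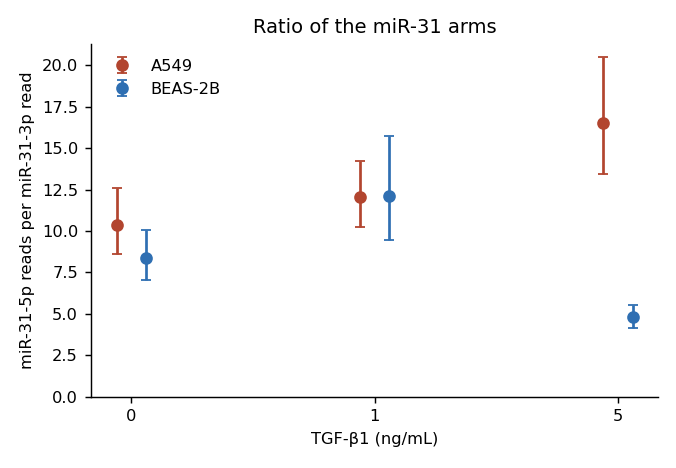
Points give the number of hsa-miR-31-5p reads per hsa-miR-31-3p read in each library by TGF-β1 dose in ng/mL, with exact 95% binomial intervals as bars. The lines overlap at 0 and 1 ng/mL and separate at 5 ng/mL, at 16.5 in A549 and 4.80 in BEAS-2B cells.

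Shifts of arm ratio of at least 1.4-fold were frequent among hairpins with at least 10 reads of each arm. They were found at 5 ng/mL against control in 58.8% of 68 hairpins for A549 and 41.5% of 65 for BEAS-2B. Between the doses they were found in 40% of 70 and 30.2% of 63, respectively. In the last of these, 2 hairpins had a larger change in size than miR-31. Of the 59 hairpins measured in both lines, 41 changed in opposite directions at 5 ng/mL, 21 of them like miR-31 with a higher 5p share for A549 and a lower one for BEAS-2B, and 20 the other way. Past 1.4-fold in both lines there were 8 and 7, respectively. The log2 changes of miR-31, 0.67 and -0.80 from the counts, were smaller with quantile normalisation, at 0.45 and -0.45. From the counts, the difference between the lines in the log2 change was 1.47 (0.96 to 1.99) for miR-31, and 12 hairpins had a difference of larger size. It was in the same direction in 5 of them, those of miR-181a, miR-193b, miR-21, miR-30d and miR-331, which are named because of their values. Over the 59 hairpins, which share the same 4 libraries, the changes in the 2 lines had a Pearson correlation of -0.287 and a Spearman correlation of -0.466. The shift of the miR-31 arms was thus one of many in these libraries.

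**Figure D4:**
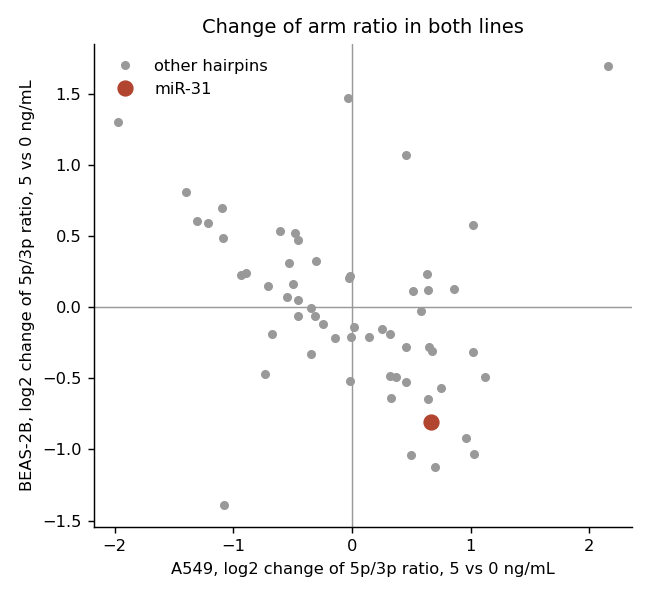
Each point is a hairpin with both arms measured in the 4 libraries at 0 and 5 ng/mL (59 hairpins), by the log2 change of its 5p to 3p ratio in A549 (horizontal) and in BEAS-2B cells (vertical). miR-31, in red, lies at 0.67 and -0.80, in the quadrant that holds 21 hairpins, and the opposite quadrant holds 20.

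When both arms were added, the hairpin's reads were higher at 5 ng/mL than in the control in both lines, with log2 ratios under TMM of 0.44 (0.34 to 0.55) for A549 and 0.40 (0.29 to 0.51) for BEAS-2B. The lower dose gave 0.55 (0.45 to 0.65) and 0.03 (-0.09 to 0.16). The comparison of 5 with 1 ng/mL in BEAS-2B cells, which uses the untreated library only through the TMM factors, gave 0.37 (0.25 to 0.49). The BEAS-2B value against control depends on the TMM factor of that library, since the summed counts were 1312 in the control and 1362 at 5 ng/mL, in libraries of 735436 and 767287 counts.

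The other miRNAs of the region were almost silent next to miR-31. Within 10 Mb of MIR31 the annotation has 6 other miRNA hairpins, which give 11 mature miRNAs in the files, and their counts over the 6 libraries came to 266, against 8831 for the arms of miR-31. All 11 had a count in at least 1 library, and 10 of them did not exceed 9 counts in any. The exception was hsa-miR-4473, within the gene MLLT3, 1.10 Mb from MIR31. In order of dose its counts were 59, 56 and 47 for A549, and 6, 17 and 8 for BEAS-2B. The nearest, hsa-miR-491-5p within FOCAD, 0.796 Mb away, had 0 to 4 counts per library. Reads of both arms of miR-31, and of hsa-miR-4473 on its side away from CDKN2A, were thus present in the A549 libraries. Levels of CDKN2A and gene copy number were not analysed here.

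The miRNAs with the profile most like hsa-miR-31-5p were sought among the 156 others whose ND reached 8 in some library, by the root mean square difference of mean-centred ND values over the 6 libraries. The closest was hsa-miR-99b-5p, at 0.14, with normalised counts in order of dose of 4664, 6607 and 6939 for A549, and 2948, 4034 and 3457 for BEAS-2B. Next came hsa-miR-365b-3p (0.21), hsa-miR-320b (0.22), hsa-miR-99b-3p (0.22) and hsa-miR-365a-3p (0.23), against a median of 0.70. The mature sequences of hsa-miR-365a-3p and hsa-miR-365b-3p are identical in the table, so their reads cannot be told apart. The partner arm hsa-miR-31-3p, with a difference of 0.56, ranked 51 of 157 when it was added to the list.

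Among 10 other miRNAs described as regulators of tumour spread, hsa-miR-373-3p, hsa-miR-520c-3p and hsa-miR-206 had 0 counts in all libraries. In A549 cells, the 4 that met the ND criterion all stayed short of 1.4-fold at both doses against control, where 48.9% and 53.2% of miRNAs passed. Their median log2 ratio was 0.15 at 1 ng/mL, beside -0.11 for all 137 miRNAs, and -0.33 at 5 ng/mL, beside -0.03 for all 141. hsa-miR-126-3p, an endothelial miRNA, had log2 ratios at 5 ng/mL of 0.38 for A549 and -0.64 for BEAS-2B. The others in A549 cells were hsa-miR-10b-5p and hsa-miR-21-5p, both known as promoters of invasion, at -0.39 and -0.32, and hsa-miR-9-5p, which targets E-cadherin, at -0.35. At 5 against 1 ng/mL in A549 cells 1 of the 4 passed, downward (hsa-miR-21-5p, -0.55), where 16.9% of miRNAs did. In BEAS-2B cells 2 met the criterion at 5 ng/mL, and 1 passed upward (hsa-miR-21-5p, 1.10) and 1 downward (hsa-miR-126-3p), where 36% of miRNAs passed. Both fell short of 1.4-fold at 5 against 1 ng/mL, which uses no counts of the untreated library, at 0.08 for hsa-miR-21-5p and -0.46 for hsa-miR-126-3p. Only 6.61% of miRNAs passed in that comparison. At 1 ng/mL against control hsa-miR-21-5p was at 1.02. Its values above control at both doses use the same untreated library, in which its share was the lowest. Whether treatment or that single library gave these values was not tested. Between the untreated lines all 4 passed as higher in A549 cells, as 40.7% of miRNAs did, hsa-miR-10b-5p most, with 407 counts against 4. At 1 and at 5 ng/mL 3 of them did, where 38.5% and 38.4% of miRNAs did. The exception was hsa-miR-21-5p, with log2 ratios of A549 to BEAS-2B in order of dose of 1.12, 0.34 and -0.29. The members that did not reach the criterion in any library were hsa-miR-335-5p at 22 to 317, hsa-miR-34a-5p at 23 to 102 and hsa-miR-200c-3p at 6 to 38 per library.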

How the data were processed

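Small RNA libraries were prepared with the NEBNext small RNA kit per the labels. The authors deposited 1 table per library, which gives for each mature miRNA an unnormalised whole-number count of reads. Bowtie2 and bedtools are named in the submitters' processing notes, without versions or roles, and the genome build, the miRNA annotation release and the handling of strand are not given in the sources used here. Molecular identifiers are not mentioned, so intervals cover counting error only. A count of 0 allows up to 3 counts, 3.33 to 4.74 CPM (counts scaled to the library total).

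Counts were divided by the TMM effective library size (edgeR 4.0.16, R 4.3.3) and multiplied by its mean of 749498. ND was log2 of this value plus a pseudocount of 1, and a log2 ratio was a difference of ND values. Intervals of ratios were exact conditional Clopper-Pearson intervals, those of arm-ratio changes exact conditional odds ratios, and those of differences between lines normal approximations on the log scale (scipy 1.17.1). The study's criteria were used, and no p-value was computed, because each group had 1 library. Alternatives were DESeq2 1.42.0 size factors, total counts, quantile normalisation (limma 3.58.1), TMM and totals without hsa-miR-21-5p, no scaling, pseudocounts of 0.5 and 10, and ND and fold thresholds. TMM without the untreated BEAS-2B library, and quantile normalisation of the arm ratio, were added after seeing the data. Shares of miRNAs past the criteria are those under TMM. The fold of the hairpin used ViennaRNA 2.7.2. Intervals of ratios were tried on simulated Poisson counts from a profile shared by both lines. Such counts hold counting error only, so they cannot show how the intervals cover other variation.

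The members and lists were chosen with earlier results of these data known. Besides both arms, the text names the rank neighbours of miR-31-5p in the controls, the 5 miRNAs most like it, miRNAs sharing its seed, members of the 9p and tumour-spread lists with at least 50 counts in a library, and markers at 0. Others named were chosen after their values were seen. They are hsa-miR-491-5p, hsa-miR-200c-3p among the list members below 50 counts, the 5 hairpins of the arm comparison, and the epithelial, mesenchymal or muscle and neural markers named for their counts.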

Additional observations from a re-analysis of the deposited data

Results flagged for a closer look

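In 6 cases, values of miR-31 went in opposite directions in the 2 cell lines under the same contrast. Each contrast compares single libraries, and none of these differences was tested. The cases are not independent, since the contrasts share libraries and the ratio reuses the reads of both arms. For the ratio at 5 ng/mL against control, 41 of 59 hairpins went in opposite directions. For the other cases the share of all miRNAs or hairpins that did so was not computed. Given as the log2 change in A549 minus that in BEAS-2B cells, the difference for hsa-miR-31-3p was 0.80 at 1 ng/mL against control, -1.27 at 5 ng/mL against control and -2.06 at 5 against 1 ng/mL. At 5 ng/mL against control the A549 value was -0.18 with an interval that included 0 (-0.58 to 0.22). At 1 ng/mL against control it was 0.35, and its interval included 0 under some scalings, total counts among them (-0.13 to 0.56). For hsa-miR-31-5p it was -0.28 at 5 against 1 ng/mL, where the A549 value of -0.07 had an interval that included 0. With total counts that case was absent, at 0.22 in A549 and 0.23 in BEAS-2B cells. For the 5p to 3p ratio of miR-31 it was 1.47 at 5 ng/mL against control and 1.79 at 5 against 1 ng/mL. Groups of 1 library could not be searched for outlying samples.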

How the results depend on the processing

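No paired analysis was possible because each group had 1 library, and no replicate could be left out. Of 156 log2 ratios of the arms recomputed under the alternatives, 126 stayed within the counting interval, 30 moved beyond it, and 8 changed sign, none of them past the criteria before. In order of comparison, hsa-miR-31-5p in A549 cells at 1 against 0 ng/mL was 0.43 with total counts and 0.31 with quantile normalisation. At 5 against 0 ng/mL it was 0.65, 0.20 and, without scaling, 0.33, and at 5 against 1 ng/mL 0.22 with total counts and -0.29 without scaling. In BEAS-2B cells it was -0.35 with total counts and -0.51 without scaling at 1 ng/mL. At 5 ng/mL it was -0.12 with total counts, 0.47 with totals without hsa-miR-21-5p and -0.056 without scaling, and at 5 against 1 ng/mL 0.35 with totals without hsa-miR-21-5p and 0.45 without scaling. Between the lines it was 0.032 with total counts and 0.13 without scaling in untreated cells. At 1 ng/mL it was 0.80 with total counts, 0.85 with quantile normalisation, 0.92 with totals without hsa-miR-21-5p and 1.26 without scaling. At 5 ng/mL it was 0.46 with quantile normalisation, 0.51 with totals without hsa-miR-21-5p and 0.52 without scaling. For hsa-miR-31-3p in BEAS-2B cells the value was -1.03 without scaling at 1 ng/mL, and 0.68 with total counts and 0.74 without scaling at 5 ng/mL. Between the lines it was -0.28 with total counts, -0.14 with quantile normalisation and -0.17 without scaling in untreated cells, and 0.53 with quantile normalisation at 1 ng/mL. The cause of these moves was not tested. TMM without the untreated BEAS-2B library, chosen after seeing the data, moved no value beyond its interval, but hsa-miR-31-5p in A549 cells at 5 ng/mL then had 0.40 and no longer passed the criteria. Quantile normalisation of the arm ratio, also added after seeing the data, moved 2 of 9 changes beyond their intervals, to -0.45 in BEAS-2B cells at 5 ng/mL against control and to 0.78 between the untreated lines. Of 45 shares of miRNAs past the criteria under other thresholds, 15 moved by over 1.5 times. The share of hairpins with a higher 5p share than miR-31 moved in none of 12 recomputations, and 4 or 5 of the 5 closest profiles were kept. The 68 to 235 counts of hsa-miR-31-3p gave it wider intervals than hsa-miR-31-5p, so its values could move further before leaving them.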
